A study of Mus musculus with 6 samples.

Results

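The genes described here are 10 genes of the choroid plexus epithelium, the secretory cell layer that hangs into the brain ventricles: Ttr, Kcne2, Kcnj13, Cldn2, Sostdc1, Folr1, Aqp1, Calml4, Ecrg4 and Krt18. They were taken by symbol from a table of 45777 genes, and each symbol matched 1 row. RNA was sequenced from the striatum of 6 mice aged 6 weeks, of the outbred ICR strain, in 2 groups of 3. The methylphenidate-sired group came from fathers given methylphenidate subcutaneously at 15 mg/kg, and the saline-sired group from fathers given saline at 10 mL/kg. All fathers were ICR males of 6 weeks, treated for 21 days and then mated with females that had received no drug, so the offspring themselves were not treated. The labels give 2 females and 1 male in each group. Methylphenidate blocks the transporters that take up dopamine and noradrenaline. How many fathers or litters stood behind the offspring is not stated in the sources used, and every p-value therefore reflects spread among these 6 libraries, part of which may be technical. Libraries are called by group and by the number in the table's column (2, 4 and 6 in the methylphenidate-sired group, 3, 4 and 5 in the saline-sired group), which no label ties to a particular animal.

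The choroid plexus makes most of the cerebrospinal fluid. Its epithelial cells move ions and water from blood to ventricle, carry hormones and vitamins across, and secrete proteins into the fluid. The lateral ventricle borders the striatum, and the striatum itself has no choroid plexus epithelium. Levels are given as counts and as CPM, counts scaled to a common library size after TMM, a method that makes libraries comparable. Totals lay between 31360042 and 38844724 counts per library. The striatal label was checked on 10 markers of striatal projection neurons (Drd1, Drd2, Ppp1r1b and others), whose summed level was 7689, 7611 and 6874 CPM in methylphenidate-sired libraries 2, 4 and 6, against 7993, 8657 and 8619 CPM in saline-sired libraries 3, 4 and 5. All libraries therefore carried the markers of the labelled tissue. In bulk tissue, fewer cells of a type and less RNA per cell cannot be told apart.

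Every one of the 10 genes was highest in saline-sired library 3 and second highest in saline-sired library 4, while the remaining saline-sired library, 5, was as low as the methylphenidate-sired libraries or lower. Over all 17874 genes tested, 19.7% were highest in saline-sired library 3, and 6.25% had that library first and saline-sired library 4 above the other 4. The 10 genes together made up 17.4, 65.5 and 37.5 CPM in methylphenidate-sired libraries 2, 4 and 6, against 2014, 334 and 11.3 CPM in saline-sired libraries 3, 4 and 5. The groups overlapped for each of the 10 genes. Of all genes tested, 14.8% had groups that did not overlap, 7.01% with the methylphenidate-sired group lower. All 10 were at least 5 times as high in saline-sired library 3 as in the highest of the 3 methylphenidate-sired libraries and saline-sired library 5, against 0.134% of all genes. Saline-sired library 5 was lowest of all 6 for 7 of the 10, without a tie, against 14.5% of all genes. High levels thus marked 2 saline-sired libraries and not the group.

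**Figure D1:**
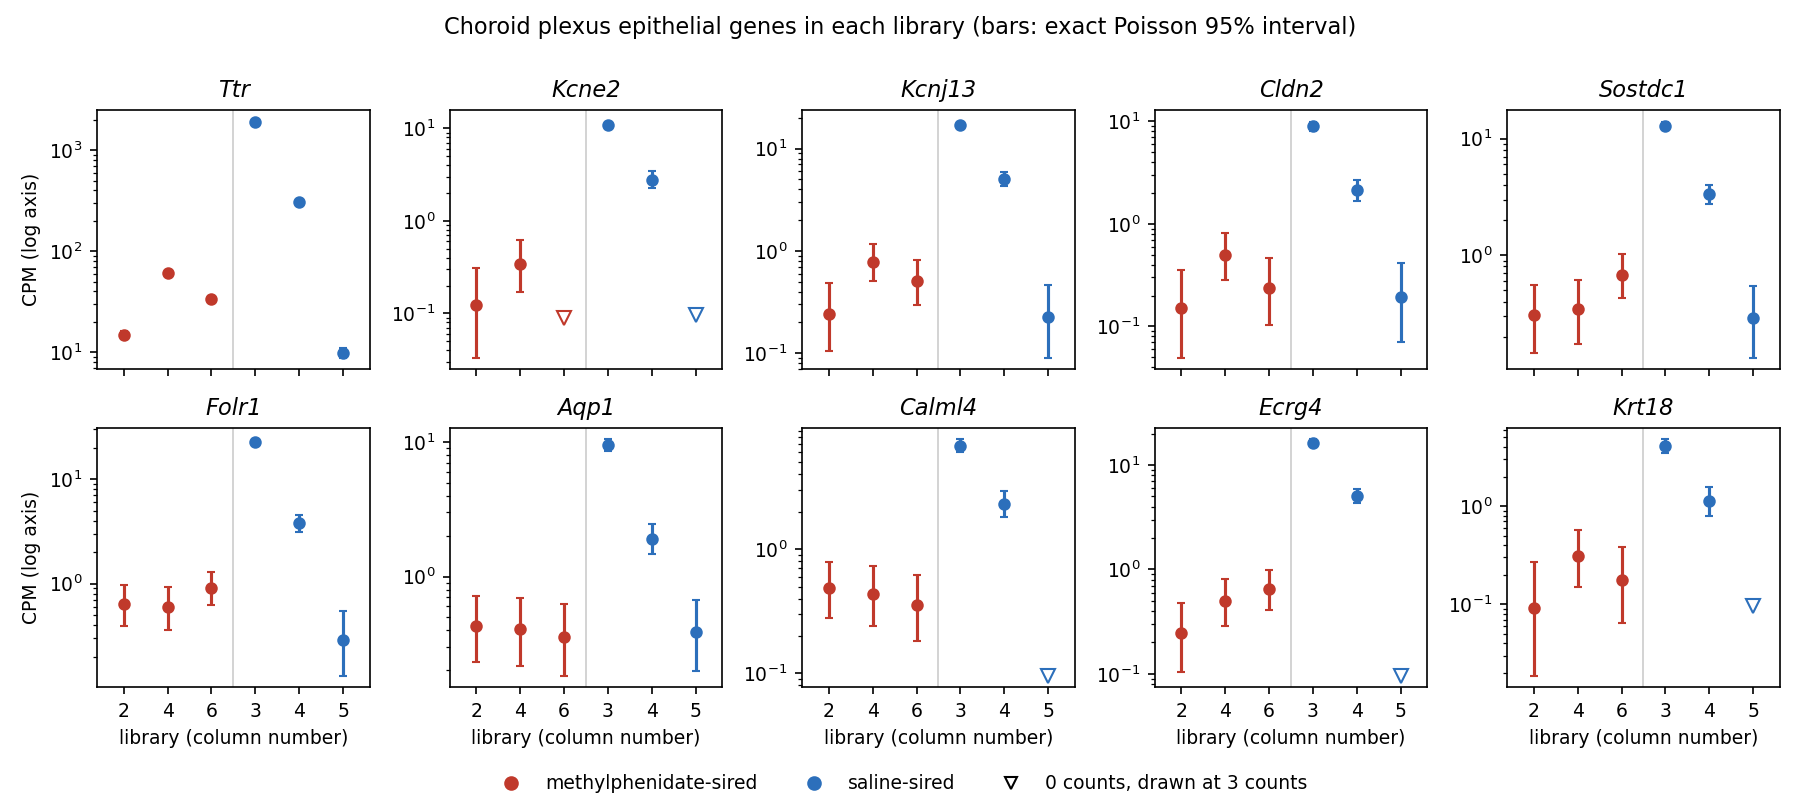
Level of each of the 10 genes in CPM (log axis) in every library, with methylphenidate-sired libraries on the left of each panel and saline-sired libraries on the right; bars are exact Poisson 95% intervals of the count, and open triangles mark 0 counts, drawn at the level of 3 counts. In all 10 panels saline-sired library 3 is the highest point and saline-sired library 4 the second highest, and saline-sired library 5 lies among or below the methylphenidate-sired libraries.

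The carrier genes include the most abundant of the 10. Ttr encodes transthyretin, which carries thyroxine and, bound to retinol-binding protein, retinol (Gene ID 22139, chromosome 18, 20664209 to 20674326, mm10). It had 14.7, 61.3 and 33.6 CPM in methylphenidate-sired libraries 2, 4 and 6, against 1905, 306 and 9.88 CPM in saline-sired libraries 3, 4 and 5. The lowest Ttr level of all therefore stood in the same group as the highest, and the 2 differed 193-fold. In reads, Ttr took 0.195% of saline-sired library 3, with 75708 counts, and 308 counts in saline-sired library 5. Folr1 encodes the folate receptor that carries folate into the cerebrospinal fluid (Gene ID 14275, chromosome 7, 101858331 to 101870788). It had 21, 19 and 31 counts in methylphenidate-sired libraries 2, 4 and 6, against 898, 121 and 9 counts in saline-sired libraries 3, 4 and 5. Its saline-sired values thus span both sides of the methylphenidate-sired ones. Per kilobase of annotated exon, in saline-sired library 3, Ttr was at 1606 CPM per kb and the other 9 genes lay between 1.87 (Calml4) and 18.1 (Ecrg4) CPM per kb.

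The channel and water transport genes showed the same order of libraries. Kcne2 encodes an accessory subunit of voltage-gated potassium channels (Gene ID 246133, chromosome 16, 92292389 to 92298133). It had 4, 11 and 0 counts in methylphenidate-sired libraries 2, 4 and 6, against 429, 89 and 0 counts in saline-sired libraries 3, 4 and 5, so 1 library of each group had none. The limit set for a count of 0 throughout is the level of 3 counts, 0.0888 CPM in methylphenidate-sired library 6 and 0.0962 CPM in saline-sired library 5, which covers counting error only. The upper ends of the exact 95% intervals are 0.109 and 0.118 CPM in these libraries. Kcnj13 encodes the inward rectifier potassium channel Kir7.1 (Gene ID 100040591, chromosome 1, 87384577 to 87394729). It had 8, 25 and 17 counts in methylphenidate-sired libraries 2, 4 and 6, against 678, 161 and 7 counts in saline-sired libraries 3, 4 and 5. Of its exon bases, 49.1% overlap exons of Gigyf2 on the other strand, and no source used here states whether counting used strand, so its count is uncertain. Aqp1 encodes a water channel of the ventricular membrane (Gene ID 11826, chromosome 6, 55336299 to 55348555). It had 14, 13 and 12 counts in methylphenidate-sired libraries 2, 4 and 6, against 376, 61 and 12 counts in saline-sired libraries 3, 4 and 5. The 4 low libraries of Aqp1 lay within counting error of each other, between 0.355 and 0.426 CPM.

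The junction and cytoskeleton genes were Cldn2, Krt18 and Calml4. Cldn2 encodes a claudin that forms pores for cations and water between cells of leaky epithelia (Gene ID 12738, chromosome X, 139800808 to 139811386). It had 5, 16 and 8 counts in methylphenidate-sired libraries 2, 4 and 6, against 358, 68 and 6 counts in saline-sired libraries 3, 4 and 5. Krt18 encodes a type I keratin of simple epithelia (Gene ID 16668, chromosome 15, 102028216 to 102032026). It had 3, 10 and 6 counts in methylphenidate-sired libraries 2, 4 and 6, against 163, 36 and 0 counts in saline-sired libraries 3, 4 and 5. Calml4 encodes a calmodulin-like protein known from the brush border of human intestinal cells (Gene ID 75600, chromosome 9, 62857472 to 62875921). It had 16, 14 and 12 counts in methylphenidate-sired libraries 2, 4 and 6, against 270, 74 and 0 counts in saline-sired libraries 3, 4 and 5. For Krt18 and Calml4, saline-sired library 5 thus held no read where every methylphenidate-sired library held some.

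The remaining pair encode secreted proteins. Sostdc1 encodes an antagonist of bone morphogenetic proteins that also modulates Wnt signalling (Gene ID 66042, chromosome 12, 36314169 to 36318452). It had 10, 11 and 23 counts in methylphenidate-sired libraries 2, 4 and 6, against 511, 106 and 9 counts in saline-sired libraries 3, 4 and 5. Ecrg4 encodes the precursor of augurin (Gene ID 78896, chromosome 1, 43730602 to 43742564). It had 8, 16 and 22 counts in methylphenidate-sired libraries 2, 4 and 6, against 648, 162 and 0 counts in saline-sired libraries 3, 4 and 5. Both had their highest methylphenidate-sired level in library 6, as did Folr1. In Ttr, Kcne2, Kcnj13, Cldn2 and Krt18 it was library 4, and in Aqp1 and Calml4 it was library 2. At these counts the order of the methylphenidate-sired libraries often lies within counting error, but for Ttr the 3 exact Poisson 95% intervals are apart (13.5 to 16.1, 58.6 to 64.1 and 31.7 to 35.7 CPM in methylphenidate-sired libraries 2, 4 and 6).

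Because the 10 genes moved together, the stretch around their transcription starts was read from a RefSeq promoter table built on GRCm38.p6 (mm10). It holds 8 windows for 7 of the 10 genes, each from 250 bases before to 50 after a start. Ttr, Sostdc1 and Folr1 had no window. OTX2, a homeodomain factor of choroid plexus development, prefers the letters TAATCC. No window held them on either strand, against 7.06% of all windows in the table. At that share, finding none in 8 windows does not set these genes apart. The letters of a TATA box, TATAAA, were searched on both strands after the windows had been read. They stood in the windows of Cldn2 and Kcnj13, starting 35 and 29 bases before the start, against 13.6% of all windows. Both windows are shown with the match in capitals, Cldn2 on the plus strand at chrX:139800558-139800857 and Kcnj13 on the minus strand at chr1:87394680-87394979. A match of letters is a description and not a site.
Cldn2: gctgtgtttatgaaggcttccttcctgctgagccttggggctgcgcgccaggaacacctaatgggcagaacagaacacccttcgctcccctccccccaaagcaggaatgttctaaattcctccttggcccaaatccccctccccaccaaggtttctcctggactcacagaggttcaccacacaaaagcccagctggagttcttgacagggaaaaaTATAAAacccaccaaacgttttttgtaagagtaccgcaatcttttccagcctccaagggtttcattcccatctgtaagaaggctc
Kcnj13: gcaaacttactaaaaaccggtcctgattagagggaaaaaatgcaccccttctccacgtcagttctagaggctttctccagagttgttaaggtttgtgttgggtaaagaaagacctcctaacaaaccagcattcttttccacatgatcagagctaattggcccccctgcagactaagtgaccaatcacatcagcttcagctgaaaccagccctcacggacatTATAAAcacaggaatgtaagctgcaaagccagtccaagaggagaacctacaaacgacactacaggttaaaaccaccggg

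The proportions among the 10 genes differed between libraries. The 9 genes other than Ttr together had 184, 69.0 and 115 reads per 1000 Ttr reads in methylphenidate-sired libraries 2, 4 and 6, against 57.2, 90.0 and 140 in saline-sired libraries 3, 4 and 5. The value was lowest in the library with most Ttr, the gene that is its denominator. The exact binomial 95% intervals of saline-sired libraries 3 and 4 were apart (55.5 to 59.0 and 83.9 to 96.5). Kcnj13 had 16.5, 12.8 and 15.0 reads per 1000 Ttr reads in methylphenidate-sired libraries 2, 4 and 6, against 8.96, 16.5 and 22.7 in saline-sired libraries 3, 4 and 5. Aqp1 had 28.9, 6.64 and 10.6 reads per 1000 Ttr reads in methylphenidate-sired libraries 2, 4 and 6, against 4.97, 6.26 and 38.96 in saline-sired libraries 3, 4 and 5. The Aqp1 ratio was highest in the pair of libraries with the least Ttr, its denominator. Aqp1 itself had 14, 13 and 12 counts in methylphenidate-sired libraries 2, 4 and 6 and 12 in saline-sired library 5. The ratio therefore followed Ttr over these libraries and shows no rise of Aqp1.

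Relative to saline-sired library 3, saline-sired library 4 held between 16.1% (Ttr) and 34.2% (Calml4) of the level, with a median over the 10 genes of 25.9%. Ttr and Folr1, the carriers, had the lowest shares, at 16.1% and 16.8% (exact binomial 95% intervals 15.7% to 16.4% and 13.8% to 20.4%). Ecrg4 and Kcnj13 had shares of 31.2% and 29.6%, whose intervals (26.1% to 37.1% and 24.8% to 35.2%) lie above those of both carriers. The 10 genes therefore did not keep 1 proportion between the 2 libraries. The corresponding medians were 1.96%, 3.76% and 3.87% in methylphenidate-sired libraries 2, 4 and 6, and 0.898% in saline-sired library 5. These intervals cover counting error only.

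**Figure D2:**
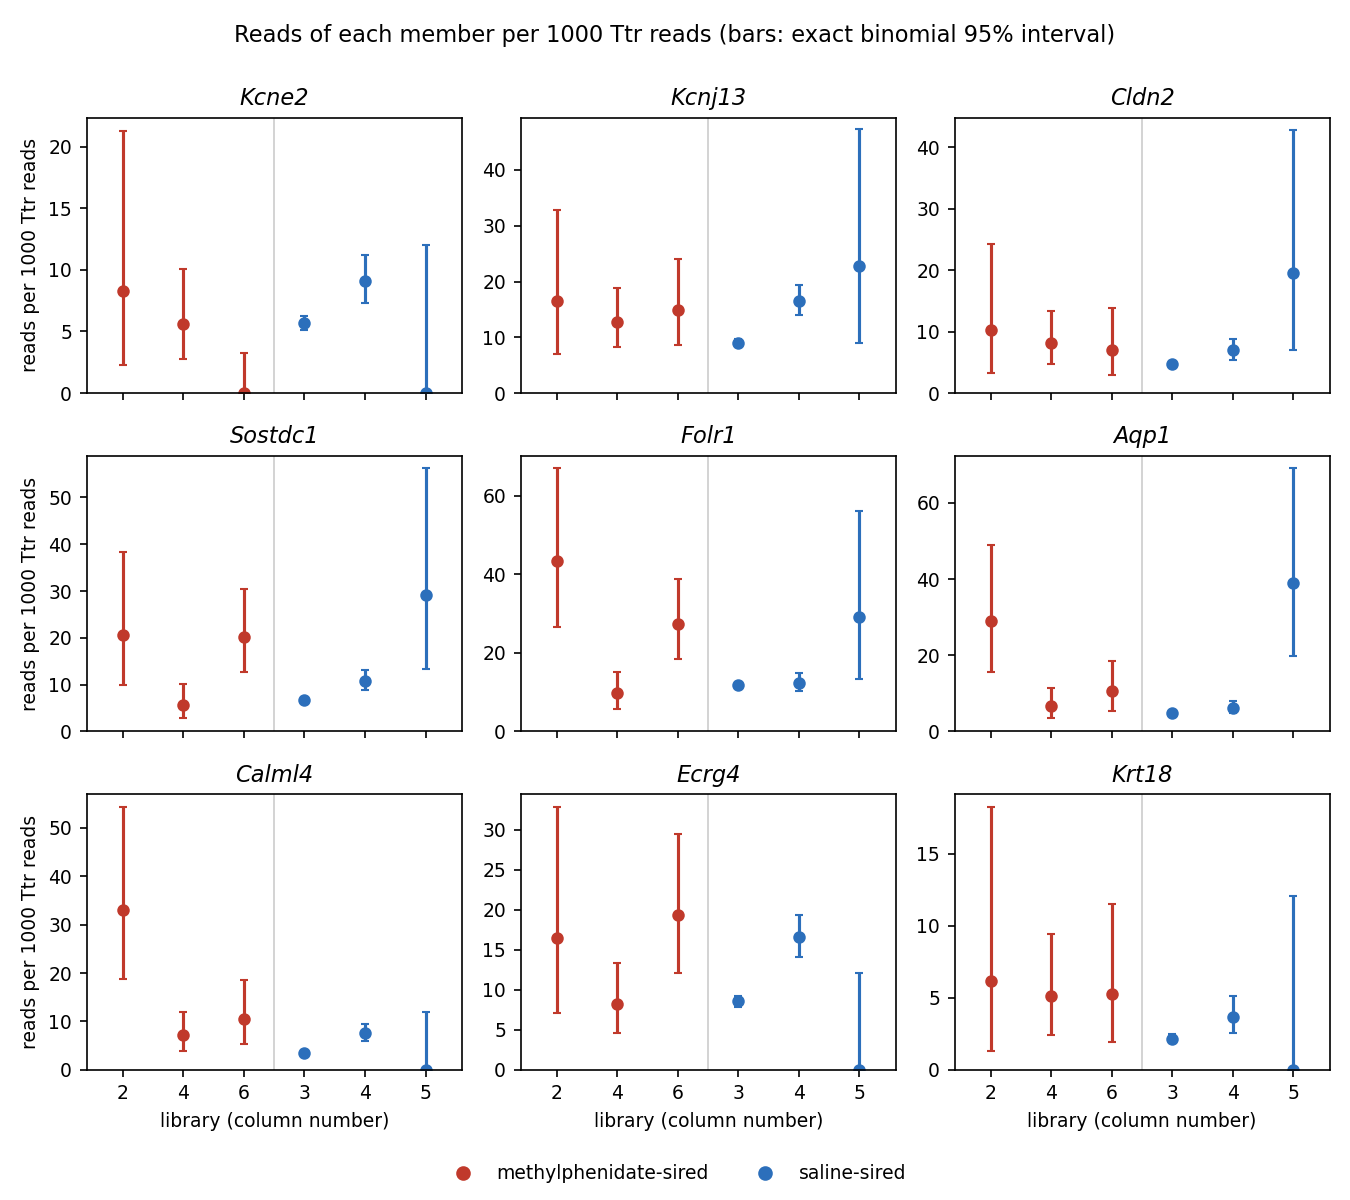
Reads of each of the 9 other genes per 1000 Ttr reads in every library, methylphenidate-sired libraries left and saline-sired right in each panel, with exact binomial 95% intervals. Saline-sired library 3, with the most Ttr, has the narrowest intervals, and its values lie below those of saline-sired library 4 in all 9 panels; for Aqp1 the highest points are 28.9 and 38.96.

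The comparison of the groups asked whether the father's treatment went with a different level of these genes in the offspring. None of the 10 passed the edgeR quasi-likelihood test at an adjusted p under 0.05 over all genes tested, where 0.0224% passed. All 10 were kept by the filter on low counts. Fold changes, methylphenidate-sired over saline-sired, were negative for all 10 on the log2 scale, against 53.0% of all genes, with a median of -3.66 against -0.01 over all genes tested. All 10 were below -2, against 0.201% of all genes, and 1.35% of all genes were below -1. At an unadjusted p under 0.05 all 10 were lower, against 3.95% of all genes in that direction and 9.02% in either. DESeq2 called 0 of the 10, against 1.42% of the genes to which it gave an adjusted p. It gave one to 4 of the 10 (0.158 to 0.461) and had 7 at an unadjusted p under 0.05. Limma-voom called 0, with 0 at an unadjusted p under 0.05.

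Kcne2 had the most negative fold change, at -4.87 (SE 1.55, edgeR adjusted p = 0.466). Ttr averaged 36.6 ± 23.4 CPM in the methylphenidate-sired and 740 ± 1020 CPM in the saline-sired group (SD, n = 3 each), and its log2 fold change was -4.34 (SE 1.43, edgeR adjusted p = 0.470). The SD of the saline-sired group exceeded its mean for all 10 genes. Ecrg4 and Kcnj13 had -3.94 (SE 1.32) and -3.87 (SE 1.16). Cldn2, Folr1 and Sostdc1 had -3.68 (SE 1.13), -3.63 (SE 1.18) and -3.63 (SE 1.09). Aqp1 had -3.31 (SE 0.99), Krt18 -3.17 (SE 1.25) and Calml4 -2.84 (SE 1.17), the last with an edgeR adjusted p of 0.517, the largest of the 10.

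The sign and size of these values rested on 2 libraries. Without saline-sired library 3 the fold changes lay between -3.16 and -1.45 over 9 genes, Krt18 having fallen below the filter, with 0 at an unadjusted p under 0.05 in edgeR. Without saline-sired library 5 they lay between -5.43 and -3.40, with edgeR adjusted p-values from 0.0848 to 0.0989. Without both saline-sired libraries 3 and 4, 1 saline-sired library remained and is assumed to vary like the others. Ttr then had a log2 fold change of 1.89, Folr1 1.30, Kcnj13 1.17, Sostdc1 0.61, Cldn2 0.61 and Aqp1 0.04 (edgeR adjusted p from 0.928 to 0.998). Against the limit of 3 counts in saline-sired library 5, the log2 bounds were 2.27 for Ecrg4, 2.15 for Calml4, 1.01 for Krt18 and 0.69 for Kcne2. These bounds take the methylphenidate-sired mean as exact. For Kcne2 that mean rested on 4, 11 and 0 counts in libraries 2, 4 and 6. Bounds stand in place of the fitted fold changes where saline-sired library 5 had 0 counts. All 10 values or bounds thus lay above 0 when the 2 libraries were left out, Aqp1 by the least. With 1 saline-sired library left, these values are a description.

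**Figure D3:**
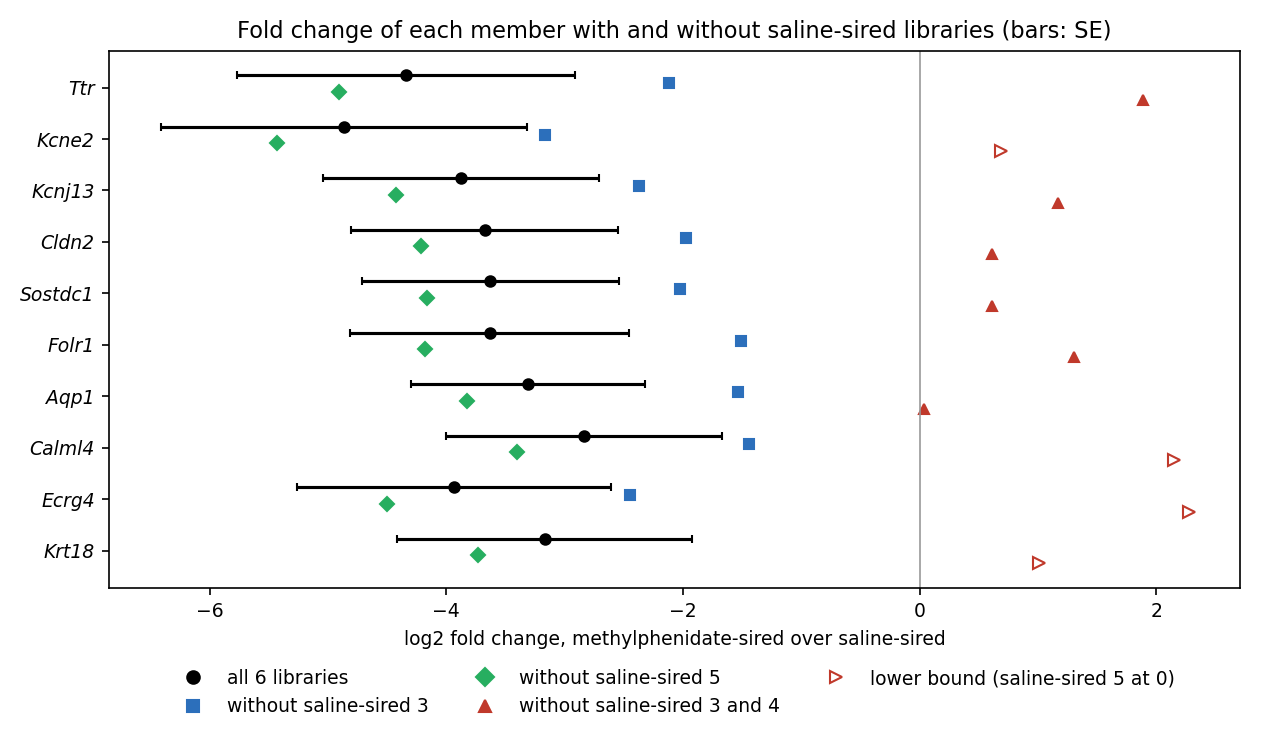
Log2 fold change of each gene, methylphenidate-sired over saline-sired. Black is with all 6 libraries (bars are SE), blue without saline-sired library 3, green without saline-sired library 5 and red without saline-sired libraries 3 and 4. Open red triangles are bounds where saline-sired library 5 had 0 counts, with the methylphenidate-sired mean taken as exact. All values with 6 libraries lie between -4.87 and -2.84, and all red points lie at 0.04 or above.

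In a second list of 22 choroid plexus genes, 21 were highest in saline-sired library 3, against 19.7% of all genes. Of the 22, 18 had that library first and saline-sired library 4 above the other 4, against 6.25%. The 22 include genes removed by the filter, while both shares are over the genes tested. Of the 18 tested, all had negative log2 fold changes (median -1.41), against 53.0% of all genes, and edgeR called 0, DESeq2 likewise 0, while 10 were lower at an unadjusted edgeR p under 0.05, against 3.95% of all genes. The lowest unadjusted p-values belonged to F5, the gene of coagulation factor V, at -1.88, and Clic6, an intracellular chloride channel gene, at -1.18. Prlr, the prolactin receptor, had 32, 72 and 74 counts in methylphenidate-sired libraries 2, 4 and 6, against 1141, 210 and 19 counts in saline-sired libraries 3, 4 and 5. Otx2, the homeodomain factor named above, had 5, 45 and 34 counts in methylphenidate-sired libraries 2, 4 and 6, against 268, 76 and 15 counts in saline-sired libraries 3, 4 and 5. Slc4a5, a sodium bicarbonate transporter, had 8, 0 and 0 counts in methylphenidate-sired libraries 2, 4 and 6, against 536, 69 and 3 counts in saline-sired libraries 3, 4 and 5, and it was removed by the filter. Krt8, the type II keratin that pairs with Krt18, was removed likewise, with 0 counts in each methylphenidate-sired library, against 88, 15 and 0 in saline-sired libraries 3, 4 and 5. Enpp2, which encodes autotaxin and is also expressed by oligodendrocytes, had the same order at a higher level, with 223, 278 and 303 CPM in methylphenidate-sired libraries 2, 4 and 6, against 1003, 516 and 189 CPM in saline-sired libraries 3, 4 and 5.

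Partner genes of the same processes, many of them also expressed elsewhere in brain, were taken as 7 further lists, and edgeR called none of them. Counting genes highest in saline-sired library 3 with saline-sired library 4 next, there were 4 of 12 in the ion and water transport list, 3 of 6 in the keratin and adhesion list and 1 or 0 in each of the other lists, against 6.25% of all genes. Of those 4, Slc4a5, Clic6 and Trpv4 also stand in the second choroid plexus list, which leaves Slc4a2, an anion exchanger gene. Slc4a5 here and Krt8 in the keratin list were removed by the filter, while the share is over the genes tested. The members given with fold changes here are among those of lowest unadjusted p in their list. Of all genes tested, 53.0% had negative fold changes, and 9.02% had an unadjusted edgeR p under 0.05 in either direction. In the ion and water transport list, 8 of 11 tested genes had negative fold changes (median -0.24, 4 at an unadjusted p under 0.05). Clic6 again had -1.18, and Atp1b1, a sodium pump subunit gene, had 0.17. In the thyroid hormone and retinol list, 6 of 7 were negative (median -0.12, 0 at an unadjusted p under 0.05), with Dio2 at 0.14. In the folate list, 2 of 4 were negative (median -0.06, 0 at an unadjusted p under 0.05), with Slc19a1, the reduced folate carrier gene, at -0.13. Of the tight junction list, 9 of 9 were negative (median -0.18, 0 at an unadjusted p under 0.05), from -0.007 to -0.62 for Cldn1. In that list, 6 of 10 genes, tested or not, were highest in saline-sired library 4, for which no share over all genes was computed. Kcnq1, a channel that KCNE2 pairs with, had 14, 14 and 6 counts in methylphenidate-sired libraries 2, 4 and 6, against 16, 13 and 7 counts in saline-sired libraries 3, 4 and 5. The epithelial adhesion list had 3 of 6 genes tested, with Dsp at -1.23 and Spint2 at -0.73, and 1 at an unadjusted p under 0.05. The brush border list had 2 of 6 tested, Myo7b at -1.29 and Ezr at -0.19, and 0 at an unadjusted p under 0.05. The list of bone morphogenetic protein and Wnt modulators had 2 of 7 negative (median 0.32). Chrd had 0.60, the 1 gene of that list at an unadjusted edgeR p under 0.05, and Nog had 0.52. DESeq2 called 0 genes in these 7 lists.

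Among genes outside the 10, those whose log2 CPM followed the mean of the 10 most closely over the 6 libraries were Prlr, Kl, Trpv4, Pcolce, Lbp, Igf2, Drc7, F5, Frem1, Nek5, Col8a2 and Slc13a4. Their Pearson correlations ran from 0.987 (Prlr) to 0.942 (Slc13a4), over 520 genes with an SD of log2 CPM of at least 1. Those 6 libraries are also the ones that define the pattern, so the correlations are a description. Of the 12, Prlr, Kl, Trpv4, Lbp, F5, Col8a2 and Slc13a4 stand in the second choroid plexus list. Kl, the klotho gene, had 5.05, 6.26 and 4.82 CPM in methylphenidate-sired libraries 2, 4 and 6, against 54.2, 16.2 and 3.98 CPM in saline-sired libraries 3, 4 and 5. Igf2, a growth factor gene, had 30.3, 24.2 and 26.3 CPM in methylphenidate-sired libraries 2, 4 and 6, against 133, 53.9 and 21.2 CPM in saline-sired libraries 3, 4 and 5.

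Markers of neighbouring cell types differed in how far they followed. The 12 ependymal markers, genes of the ciliated cells that line the ventricles, summed to 657, 894 and 733 counts in methylphenidate-sired libraries 2, 4 and 6, against 1931, 812 and 678 counts in saline-sired libraries 3, 4 and 5. The sum was high in saline-sired library 3, while that of saline-sired library 4 lay among the other libraries. Gene by gene, 5 of the 12 (Foxj1, Rsph4a, Dynlrb2, Cfap126 and Tekt1) had saline-sired library 3 first and saline-sired library 4 second, against 6.25% of all genes. Rsph1 alone gave 375 of the 894 counts in methylphenidate-sired library 4. All 12 had negative fold changes (median -0.67), against 53.0% of all genes, with Rsph4a at -0.74 and Dynlrb2 at -1.11. An unadjusted p under 0.05 was reached by 5 of them, against 3.95% of all genes in that direction. The fibroblast list summed to 77.3, 60.3 and 65.4 CPM in methylphenidate-sired libraries 2, 4 and 6, against 224, 109 and 55.7 CPM in saline-sired libraries 3, 4 and 5. Without Igf2 and Igfbp2, which choroid plexus also expresses, its 8 other genes summed to 31.5, 21.8 and 23.6 CPM in methylphenidate-sired libraries 2, 4 and 6, against 30.8, 37.9 and 23.3 CPM in saline-sired libraries 3, 4 and 5, so the groups overlapped and saline-sired library 3 did not stand out. In the whole fibroblast list 8 of 10 fold changes were negative (median -0.25), against 53.0% of all genes. At an unadjusted edgeR p under 0.05, 2 were lower, against 3.95% of all genes. These were Dcn at -0.69 and Igf2 at -1.37, the latter set aside above. The 6 endothelial markers lay between 170 and 216 CPM in the methylphenidate-sired libraries and between 181 and 208 CPM in the saline-sired ones (median log2 fold change -0.08, with Plvap at -0.29 and Ly6c1 at -0.24). The 5 blood genes had 110, 160 and 49.2 CPM in methylphenidate-sired libraries 2, 4 and 6, against 184, 186 and 98.01 CPM in saline-sired libraries 3, 4 and 5 (median log2 fold change -0.54, with Hbb-bs at -0.62 and Hba-a2 at -0.54). The 6 progenitor markers of the ventricle wall lay between 62.0 and 68.0 CPM in the methylphenidate-sired libraries and between 55.3 and 78.9 CPM in the saline-sired ones (median log2 fold change -0.36, with Igfbpl1 at -0.55 and Mki67 at -0.44). Neither edgeR nor DESeq2 called a gene of these 5 lists, and the endothelial, blood and progenitor lists had 0 at an unadjusted edgeR p under 0.05.

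The 6 cortical excitatory neuron markers summed to 895, 947 and 1052 CPM in methylphenidate-sired libraries 2, 4 and 6, against 569, 314 and 729 CPM in saline-sired libraries 3, 4 and 5. The sums did not overlap between the groups, nor did any of the 6 genes, against 14.8% of all genes. All 6 fold changes were positive (median 0.91), with Nptx1 at 0.69 and Neurod2 at 0.95, and DESeq2 called those 2, against 1.42% of the genes to which it gave an adjusted p. The saline-sired libraries with high choroid plexus genes, 3 and 4, were the lowest in cortical markers. All 10 striatal markers had negative fold changes (median -0.20), against 53.0% of all genes. Tac1 had -0.32 and Adora2a -0.23, the 2 that DESeq2 called. Of the 10, 8 did not overlap between the groups, against 7.01% of all genes in that direction. EdgeR called no gene of either list, though 6 cortical and 7 striatal markers had an unadjusted p under 0.05, against 9.02% of all genes in either direction. The part of the marker levels in the choroid plexus values was not tested.

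**Figure D4:**
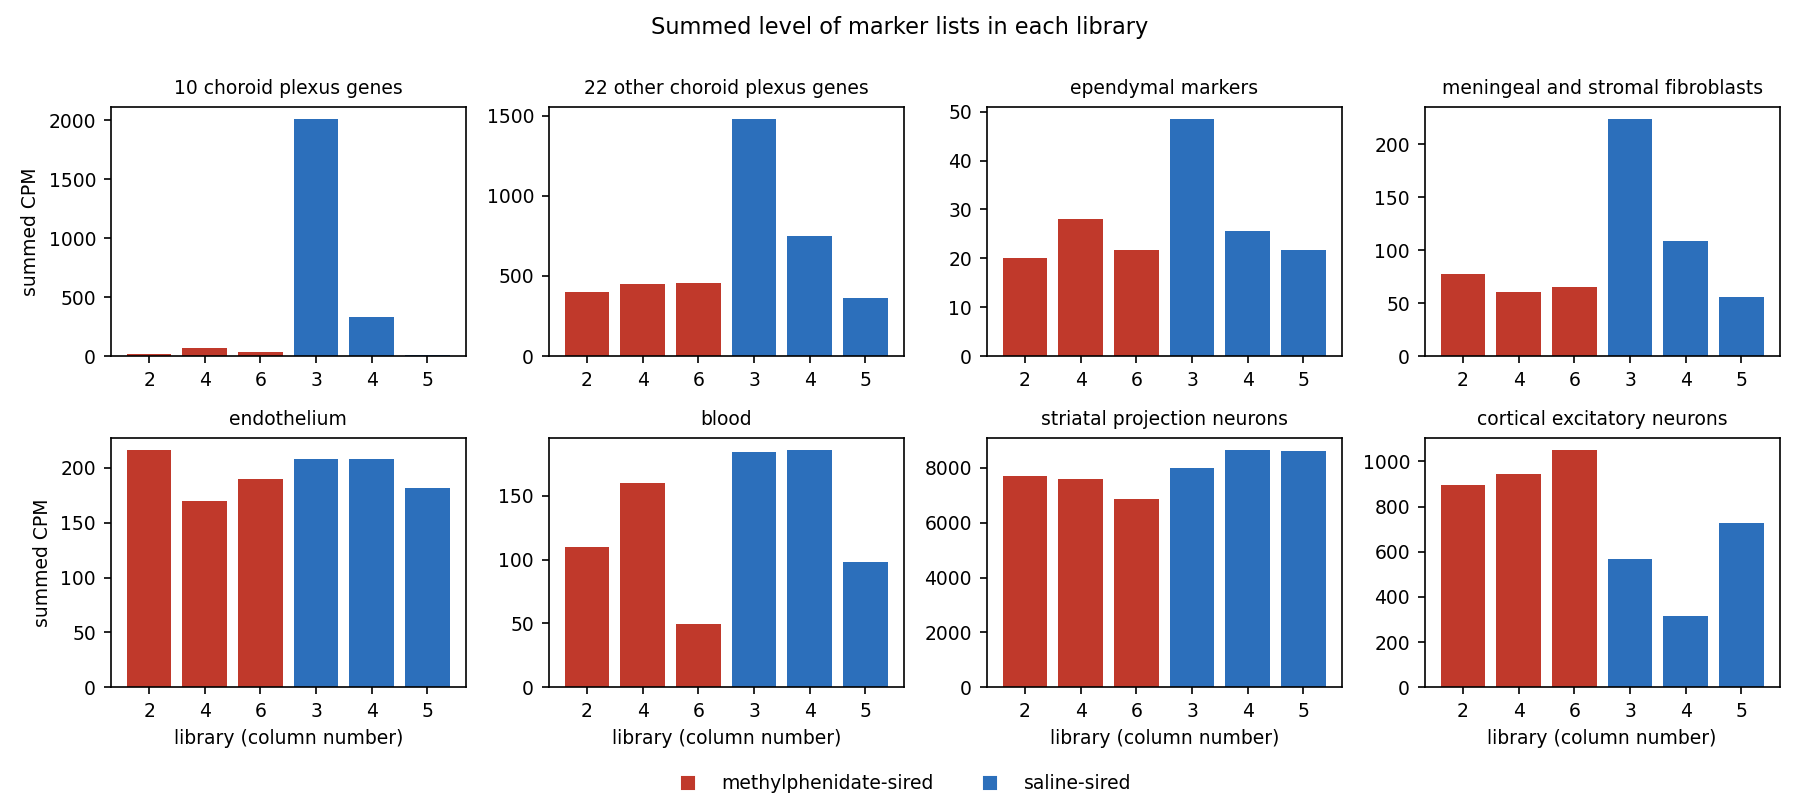
Summed CPM of 8 marker lists in every library (bars from 0, methylphenidate-sired libraries left, saline-sired right). The 10 choroid plexus genes reach 2014 CPM in saline-sired library 3 and 334 CPM in saline-sired library 4, while the endothelial markers stay between 170 and 216 CPM, and the cortical markers are lowest in saline-sired library 4 at 314 CPM.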

How the data were processed

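Per the submitters' processing notes, bcl2fastq 2.20.0, Trimmomatic, HISAT2 2.1.0 and StringTie 2.1.3b were used with the mouse build mm10. No source used here gives settings, strandedness or the treatment of reads with several matches. The values analysed are the authors' deposited read counts per RefSeq gene, whole numbers with no normalization. The 12 columns of other measures were not used. Columns were tied to a group by name and not to an animal, so offspring sex was no covariate.

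Counts of 45777 genes were filtered with filterByExpr (17874 kept), scaled by TMM and tested with the quasi-likelihood test of edgeR 4.0.16 (R 4.3.3), with Benjamini-Hochberg adjustment over all genes kept and a threshold of 0.05. Each SE is the fold change divided by the square root of F. DESeq2 1.42.0, limma-voom (limma 3.58.1), other filters, other scaling and leaving out libraries were alternatives. The script was tested on simulated counts. Every pair of libraries differed by more than sampling noise (chi-square per gene 8.45 to 35.3). Intervals are exact, at 95%. Exon lengths and overlaps come from GENCODE vM21, and positions from RefSeq GRCm38.p6. Near-identical copies were sought with blastn 2.17.0 (at least 95% identity over 200 bases), and only the Kcnj13 overlap with Gigyf2 was found.

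The 10 genes and all lists were chosen with earlier results of these data known. Beside the 10, the text names up to 2 genes a list by unadjusted p (none of them passed edgeR's test; 3 are not reported here), list members used to describe levels, and the 12 genes of closest pattern (log2 CPM with a prior count of 2, leaving out Y-linked genes and Xist).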

Additional observations from a re-analysis of the deposited data

How the results depend on the processing

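None of the 10 genes passed the test under any alternative run (edgeR with median-of-ratios scaling, with no filter and with a mean of at least 10 counts, DESeq2, limma-voom, and leaving out libraries), and all fold changes were negative except without both saline-sired libraries 3 and 4. There, the median of the 10 was 1.09 with 4 genes at their bounds, and Ttr had 1.89, Folr1 1.30, Kcnj13 1.17, Sostdc1 0.61, Cldn2 0.61 and Aqp1 0.0398, because the libraries with high levels were gone. Leaving out 1 library at a time, the median lay between -4.20 and -2.02, with 0 members past the test each time. Limma-voom gave fold changes between -3.38 and -0.74. Over all genes, edgeR called 4 genes (1612 at an unadjusted p under 0.05), DESeq2 183, limma-voom 4, and edgeR between 1 (without methylphenidate-sired library 6) and 4 without 1 library each. Without both saline-sired libraries, edgeR called 0, with 958 at an unadjusted p under 0.05. The cause of the difference between tools was not tested. CPM without TMM scaling moved no level by more than the spread of its group. The sum of the other genes, Ttr included, in place of Ttr moved no ratio out of its interval. Ttr made up between 84.5% and 94.6% of the reads of the 10 genes in each library, so this sum was mostly Ttr. It therefore cannot show whether the ratios depend on Ttr. No paired analysis was possible because no label ties an animal of 1 group to an animal of the other. The columns of the groups share only 1 number, 4, and no label gives it a meaning. Depth limits the 4 low libraries, where each gene other than Ttr had 31 counts or fewer.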

Other observations

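Of all 17874 genes tested, 24 were at least 5 times as high in saline-sired library 3 as in the highest of the 3 methylphenidate-sired libraries and saline-sired library 5. They were chosen after their values were seen. The 10 choroid plexus epithelial genes and 6 of the second choroid plexus list were among them, and 8 stood in no list. Of these 8, Drc7, a regulator of ciliary dynein, had 45, 39 and 30 counts in methylphenidate-sired libraries 2, 4 and 6, against 453, 77 and 21 counts in saline-sired libraries 3, 4 and 5. Wdr86 had 22, 12 and 13 counts in the same methylphenidate-sired libraries, against 203, 43 and 25 counts in the saline-sired ones. Col8a1, a collagen VIII chain, had 48, 41 and 63 counts in the methylphenidate-sired libraries, against 401, 82 and 44 counts in the saline-sired ones. Rbm47, an RNA-binding protein gene of epithelia, had 6, 10 and 4 counts in the methylphenidate-sired libraries, against 83, 27 and 10 counts in the saline-sired ones. A2m, a protease inhibitor gene, had 105, 43 and 105 counts in the methylphenidate-sired libraries, against 653, 106 and 44 counts in the saline-sired ones.

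The other 3 are annotated as noncoding or pseudogenes. The long noncoding RNA Gm38431 had 0, 45 and 0 counts in methylphenidate-sired libraries 2, 4 and 6, against 349, 421 and 0 counts in saline-sired libraries 3, 4 and 5. It was the 1 gene of the 24 with a higher level in saline-sired library 4 than in saline-sired library 3. The pseudogene Gm10039 had 83, 133 and 105 counts in the methylphenidate-sired libraries, against 1272, 118 and 97 counts in the saline-sired ones, of which saline-sired library 3 alone stood above the rest. D030028A08Rik had 20, 34 and 32 counts in the methylphenidate-sired libraries, against 246, 32 and 18 counts in the saline-sired ones.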
